A study of Drosophila melanogaster and Drosophila pseudoobscura and Drosophila virilis with 4 samples.

Results

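The *dpp* locus was covered by 32 of the 19424 FAIRE-Seq peaks, namely all peaks whose midpoint lies between positions 2415000 and 2490000 of chromosome arm 2L (FlyBase release 5). The window was set by position alone, though with earlier results of these data known. Within it, the peaks depended on measured values. They were gathered from calls made in each library, so a region low in some libraries could enter through others where it was high. The authors left out regions without reads in a species, and the paper describes filters on minimum RPKM and length. A region with little or no signal in a species could therefore be missing from the window. FAIRE-Seq enriches DNA from which nucleosomes are depleted, and the number of reads in a peak measures how open the chromatin is there. The eye-antennal disc, a sheet of larval cells from which come the adult eye and antenna, was profiled at the wandering stage of the third larval instar in 4 libraries from 3 species. *Drosophila pseudoobscura* (genotype Dpse\wild-type) and *Drosophila virilis* (Dvir\wild-type) had 1 library each, and *Drosophila melanogaster* had 2, from FRT82 (genotype P{neoFRT}82B, an insertion of a recombination target site) and from Canton S. Replicate error is known only as the spread between these strains. No label says from how many animals or dissections a library was made, and p-values measure only the spread between these libraries.

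*dpp* (*decapentaplegic*, locus tag Dmel_CG9885) encodes a secreted ligand of the bone morphogenetic protein family that acts as a morphogen, binding receptors of the Thickveins and Punt type, which activate the transcription factor Mad. In the eye disc it is induced by Hedgehog and is expressed in the morphogenetic furrow, the front of differentiation that sweeps across the disc and leaves rows of photoreceptors behind it. Transcription of *dpp* in imaginal discs depends on a large regulatory region downstream of its coding exons, and flies that lack part of it have reduced eyes. *Slh* and *oaf* are the nearest protein-coding genes on one side of *dpp* in the RefSeq gene table, and *CG44139* is the nearest on the other. That table is of another genome release, so it was used for names and order only, and peaks were not assigned to exons, introns or known enhancers. No sequence of release 5 was used, so none is shown.

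The peaks were numbered 1 to 32 along the window, and they spanned 151 to 1015 bp with a median of 315 bp, against a median of 289 bp for all peaks. They covered 16.8% of the window and followed each other every 2.34 kb on average, against 6.17 kb over arm 2L. Gaps of more than 3 kb between neighbours divided them into 7 blocks. Peak 1 stood alone (chr2L:2415154-2415441). The next blocks held peaks 2 and 3 (chr2L:2427701-2428802), peaks 4 and 5 (chr2L:2433219-2434008), peaks 6 to 12 (chr2L:2446944-2455223), peaks 13 to 23 (chr2L:2459763-2473799), peaks 24 to 28 (chr2L:2479218-2482483) and peaks 29 to 32 (chr2L:2486457-2488949). At 6 places neighbouring peaks were less than 200 bp apart, and peaks 27 and 28 were separated by 14 bp, so adjacent peaks are not independent.

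The libraries held 1386805 to 4733792 reads in all peaks. The *dpp* peaks took 6587 reads in *D. pseudoobscura*, 4476 in *D. virilis*, 2440 in FRT82 and 4487 in Canton-S. As a share of all peak reads this was 0.139% in *D. pseudoobscura* (95% Wilson interval 0.136% to 0.143%), 0.149% in *D. virilis* (0.144% to 0.153%), 0.176% in FRT82 (0.169% to 0.183%) and 0.132% in Canton-S (0.128% to 0.136%). These intervals cover counting error only. The locus thus took its largest share in 1 *D. melanogaster* strain and its smallest in the other, with both other species between them. FRT82 had fewer than 20 reads at 7 of the 32 peaks, against 1 peak each in *D. virilis* and Canton-S and none in *D. pseudoobscura*. Discs were profiled whole, so a peak open in more cells and a peak more open in the same cells cannot be told apart.

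Heights are given as the deposited RPKM (reads scaled to peak length and library size, normalized between libraries by the authors). The median *dpp* peak had 23.8 RPKM in *D. pseudoobscura*, 23.4 RPKM in *D. virilis*, 29.2 RPKM in FRT82 and 18.2 RPKM in Canton-S, and the median of all peaks lay between 26.8 and 28.7 RPKM in the 4 libraries. Ranked among all peaks of the same library, the *dpp* peaks had a median percentile of 40.3 in *D. pseudoobscura*, 43.1 in *D. virilis*, 51.2 in FRT82 and 29.9 in Canton-S. Of the 32 peaks, 2 in *D. pseudoobscura*, 2 in *D. virilis*, 3 in FRT82 and 1 in Canton-S were among the highest 10% of their library. By definition this holds for 10% of all peaks, and these counts were near or below that share.

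**Figure D1:**
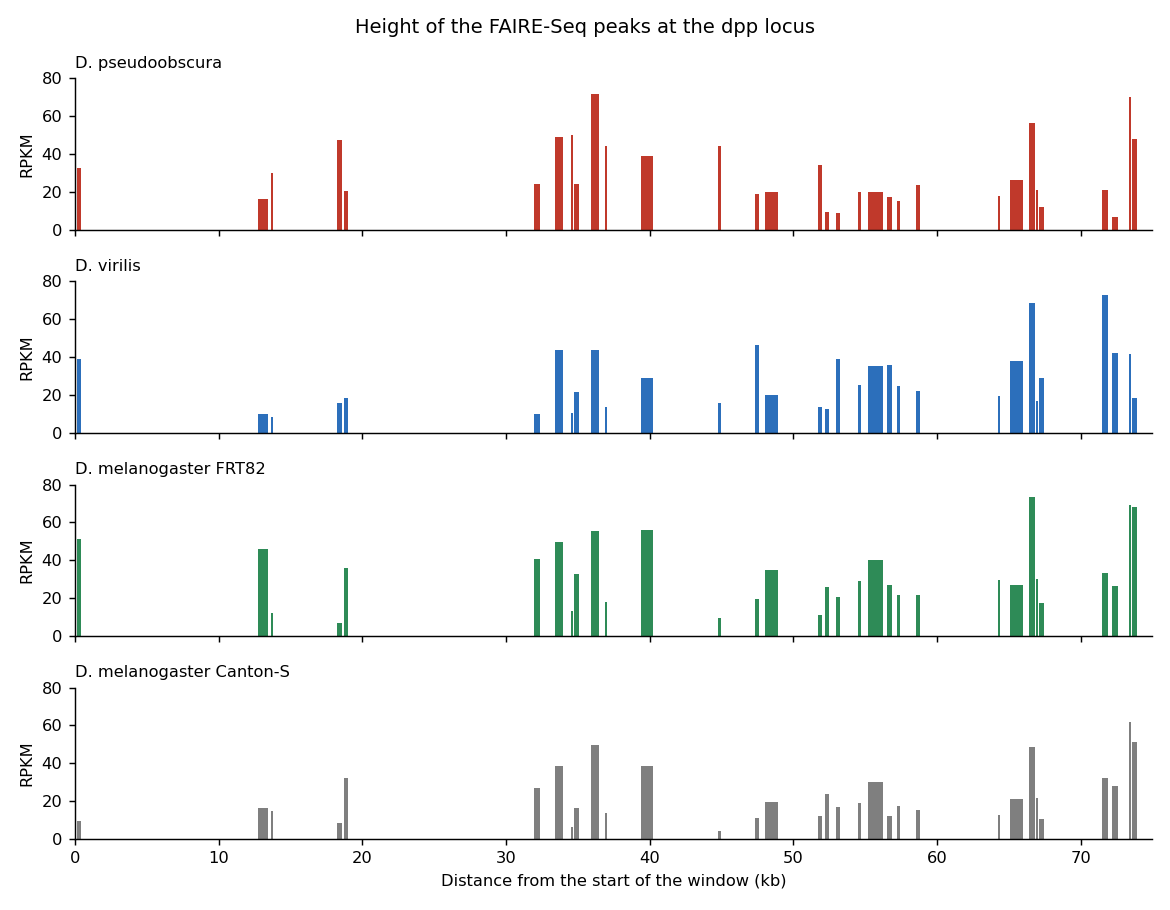
Height of the 32 *dpp* peaks (deposited RPKM, vertical axis) against distance from the start of the window in kb (horizontal axis), with 1 panel per library. Bars are as wide as the peaks, and the tallest reached 71.7 RPKM in *D. pseudoobscura*, 73.1 RPKM in *D. virilis*, 73.6 RPKM in FRT82 and 61.6 RPKM in Canton-S, at a different peak in each library.

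The 3 peaks with the highest mean of the *D. melanogaster* strains lay in the last 2 blocks. Peak 31 (chr2L:2488360-2488527) had 70.2 RPKM in *D. pseudoobscura*, 41.8 RPKM in *D. virilis*, 69.3 RPKM in FRT82 and 61.6 RPKM in Canton-S. Peak 26 (chr2L:2481435-2481835) had 56.4, 68.8, 73.6 and 48.7 RPKM in the same order of libraries. Both were among the 7 highest peaks of the locus in every library, and neither passed the test in any comparison between species. The third, peak 32, is described below with *D. virilis*. Peak 10 (chr2L:2450907-2451495), chosen after its values were seen as the highest in *D. pseudoobscura*, had 71.7, 43.8, 55.5 and 49.5 RPKM. The lowest mean of the strains was that of peak 13 (chr2L:2459763-2459964), with 44.4 RPKM in *D. pseudoobscura*, 15.9 RPKM in *D. virilis*, and only 9.26 RPKM in FRT82 and 4.18 RPKM in Canton-S.

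The strains of *D. melanogaster* were compared first, since their spread set the error of the edgeR tests that kept the 3 species apart. FRT82 was above Canton-S at 28 of the 32 *dpp* peaks, against 50.7% of all peaks. The median log2 ratio of FRT82 to Canton-S was 0.46 over the *dpp* peaks, against 0.01 over all peaks and 0.01 over arm 2L. From the read counts with TMM scaling the median was 0.44 and FRT82 was again higher at 28 peaks. Restricting the window to the 25 peaks with 20 reads or more in both strains gave 24 peaks higher in FRT82 and a median of 0.50. That limit falls mainly on FRT82, the shallower library. It removed peaks 3, 4 and 16, which were lower in FRT82 and had 12, 13 and 17 reads there. The restricted count is therefore no separate check of the direction, and the share of all peaks under this limit was not counted. In the neighbouring windows of the same width, FRT82 was higher at 4 of 10 peaks before the *dpp* window (median -0.16) and at 1 of 3 peaks after it (median -0.19). Each strain has 1 library, so this difference has no replicate check and no p-value is given.

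At 6 of the 32 peaks FRT82 was higher by 2-fold or more in RPKM (4.94% of all peaks) and at none was it lower by as much (4.8% of all peaks). From the read counts with TMM scaling, only 2 of the 32 peaks were higher by 2-fold or more, against 393 of all 19424 peaks. None was lower by as much, against 854 of all peaks. The 95% counting interval of the read ratio lay above 1 at 12 *dpp* peaks (17.6% of all peaks) and below 1 at none (13.6% of all peaks). The widest differences lay at the start of the window. Peak 1 had 51.3 RPKM in FRT82 from 79 reads and 9.65 RPKM in Canton-S from 50 reads, although Canton-S was the deeper library, and *D. pseudoobscura* (32.8 RPKM) and *D. virilis* (39.0 RPKM) lay between the strains. The read ratio of FRT82 to Canton-S was 4.06 at this peak (95% exact interval 2.82 to 5.91, counting error only). At peak 2 (chr2L:2427701-2428420) it was 2.43 (1.97 to 3.00). Peaks 3, 4, 16 and 30 were the only ones lower in FRT82, and the interval of each included 1. Peaks 1, 2, 3, 4, 16 and 30 were named after their values were seen, for this strain comparison.

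**Figure D2:**
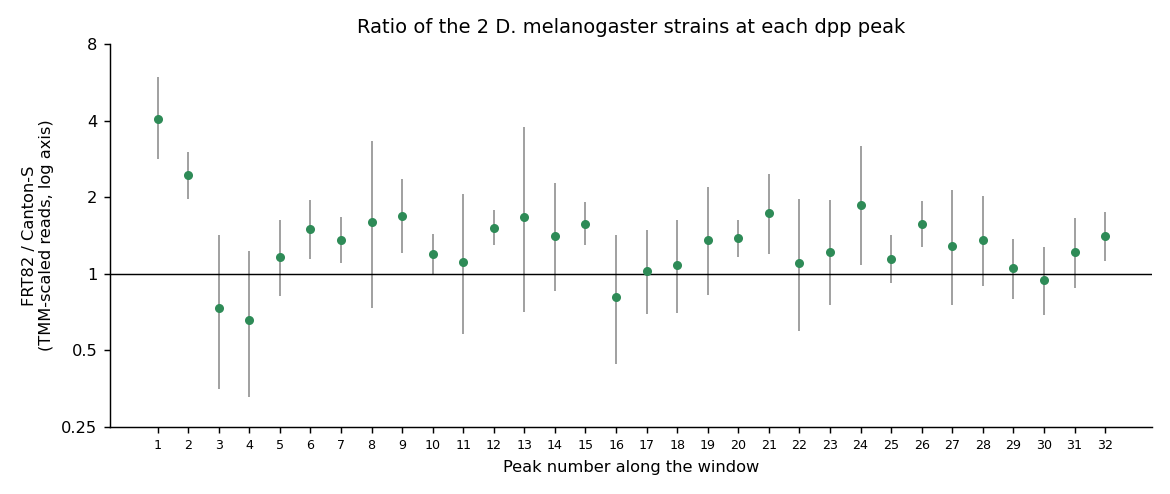
Ratio of FRT82 to Canton-S reads after TMM scaling (vertical axis, logarithmic) at each *dpp* peak in order along the window (horizontal axis). Points are single libraries over single libraries and bars are 95% exact counting intervals; 28 of 32 points lie above 1, the highest at 4.06 for peak 1.

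Each species was then compared with *D. melanogaster* by edgeR's quasi-likelihood test across all 19424 peaks, with the single libraries of *D. pseudoobscura* and *D. virilis* assumed to vary as the strains do. Of the 32 *dpp* peaks, 5 were higher in *D. pseudoobscura* than in *D. melanogaster* at an adjusted p under 0.05 (13.8% of all peaks) and 5 were lower (13.7% of all peaks). In *D. virilis* 2 were higher (11.9% of all peaks) and 3 were lower (12.9% of all peaks). Both comparisons share the *D. melanogaster* libraries. At *dpp* the shares were 15.6% in each direction for *D. pseudoobscura*, and 6.25% (higher) and 9.38% (lower) for *D. virilis*. Counts this small do not set the locus apart from all peaks in either species. Only peak 2 passed the test in both comparisons, and the share of all peaks that did so was not counted. The median log2 ratio of RPKM to the mean of the strains was -0.10 in *D. pseudoobscura*, against -0.01 over all peaks, and 0.07 in *D. virilis*, against -0.02 over all peaks. These medians changed sign with the strain used. Relative to Canton-S alone the median was 0.22 in *D. pseudoobscura* and 0.40 in *D. virilis*, and relative to FRT82 alone it was -0.52 and -0.26 in the same order.

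**Figure D3:**
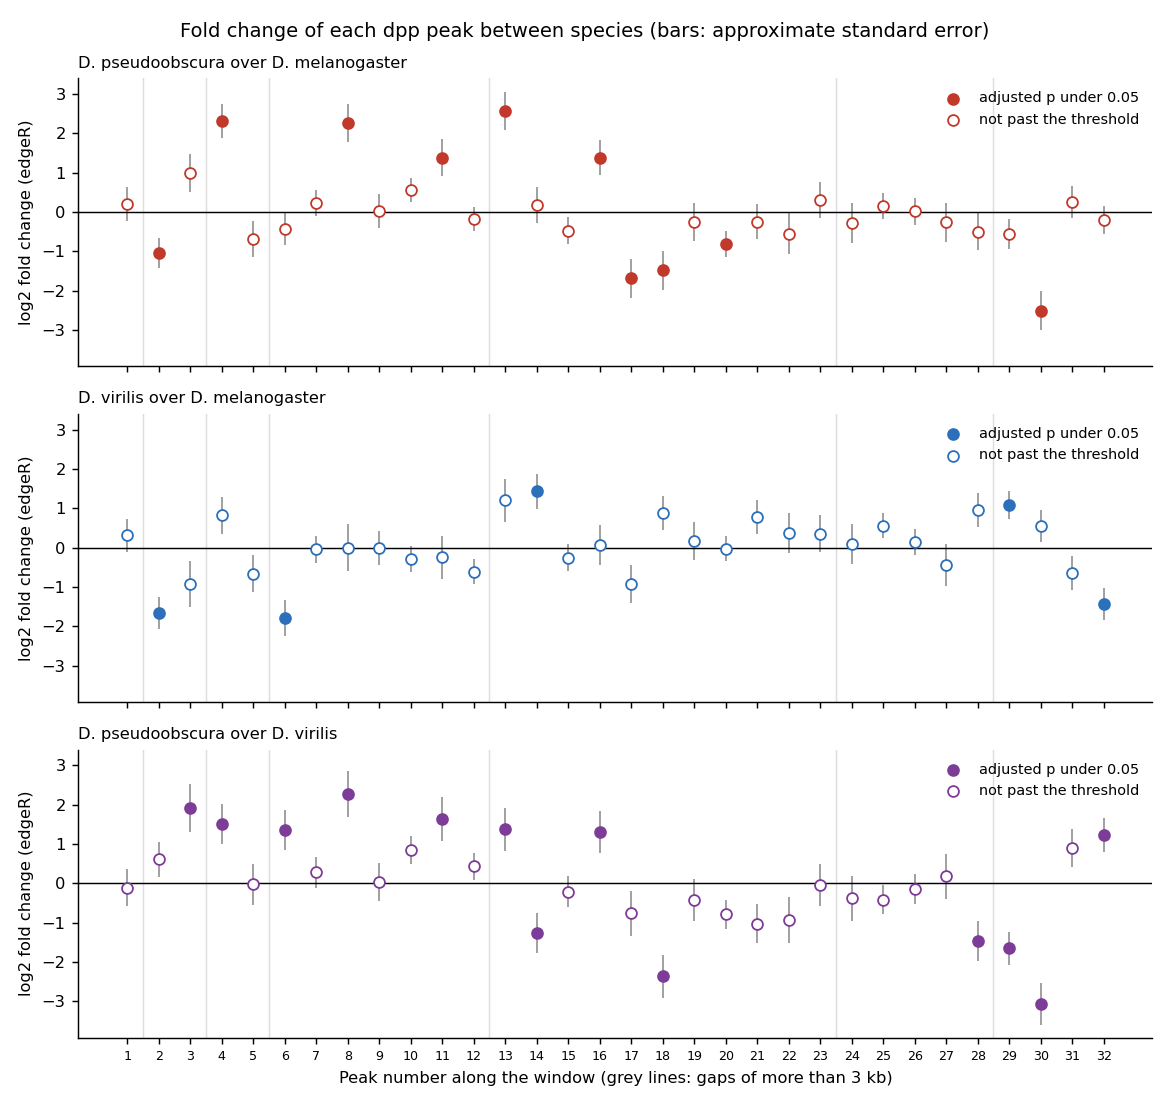
Log2 fold change from edgeR (vertical axis) at each *dpp* peak in order along the window (horizontal axis), for *D. pseudoobscura* over *D. melanogaster*, *D. virilis* over *D. melanogaster* and *D. pseudoobscura* over *D. virilis*. Filled points had an adjusted p under 0.05 (10, 5 and 13 peaks from top to bottom), open points did not, and bars are approximate standard errors.

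The peaks higher in *D. pseudoobscura* were all low in *D. melanogaster*, at 17.9 RPKM or less in each strain. Peaks were gathered from calls in each library, so regions low in both strains could enter through another species where they were high. This pattern may therefore be partly set by how peaks entered, and the edgeR p-values take no account of that. Peak 4 (chr2L:2433219-2433545) had 47.7 RPKM in *D. pseudoobscura* (281 reads) and 15.7 RPKM in *D. virilis* (67 reads), against 6.82 RPKM in FRT82 (13 reads) and 8.4 RPKM in Canton-S (51 reads). *D. pseudoobscura* stood above all other libraries, and its log2 fold change over *D. melanogaster* was 2.32 ± 0.44 (approximate SE, edgeR adjusted p = 5.57e-06). Peak 5 (chr2L:2433742-2434008), 197 bp further along, had 20.4 RPKM in *D. pseudoobscura*, 18.5 RPKM in *D. virilis*, 36.1 RPKM in FRT82 and 32 RPKM in Canton-S. There both species were below the strains, but no comparison passed the test (edgeR adjusted p = 0.260 for *D. pseudoobscura*). Peak 8 (chr2L:2449494-2449669) had 49.9 RPKM in *D. pseudoobscura* (158 reads) and 10.6 RPKM in *D. virilis* (22 reads), against 12.9 RPKM in FRT82 (13 reads) and 6.23 RPKM in Canton-S (21 reads). Its log2 fold change in *D. pseudoobscura* was 2.27 ± 0.49 (edgeR adjusted p = 8.56e-05), whereas peak 9, 58 bp away, had 24.3 RPKM in *D. pseudoobscura*, 21.5 RPKM in *D. virilis*, 32.4 RPKM in FRT82 and 16.3 RPKM in Canton-S.

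Peak 11 (chr2L:2451870-2452032) had 44.1 RPKM in *D. pseudoobscura* (129 reads) and 13.6 RPKM in *D. virilis* (28 reads), against 17.9 RPKM in FRT82 (16 reads) and 13.6 RPKM in Canton-S (37 reads). The log2 fold change of *D. pseudoobscura* was 1.39 ± 0.47 (edgeR adjusted p = 0.0176). At peak 13 the reads numbered 161 in *D. pseudoobscura*, 42 in *D. virilis*, 11 in FRT82 and 17 in Canton-S. Its log2 fold change of 2.57 ± 0.49 (edgeR adjusted p = 9.46e-06) was the highest of the locus in *D. pseudoobscura*. *D. virilis* was above both strains at that peak as well, but did not pass the test (log2 fold change 1.20 ± 0.54, edgeR adjusted p = 0.0877). Peak 16 (chr2L:2466716-2466980) had 34.4 RPKM in *D. pseudoobscura* (166 reads) and 13.5 RPKM in *D. virilis* (45 reads), against 11.1 RPKM in FRT82 (17 reads) and 11.8 RPKM in Canton-S (54 reads), with a log2 fold change of 1.38 ± 0.45 in *D. pseudoobscura* (edgeR adjusted p = 0.0127). At each of these 5 peaks *D. pseudoobscura* was 2-fold or more above each strain in RPKM, as it was at peak 3, which makes 6 of 32 peaks against 11.2% of all peaks.

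The peaks lower in *D. pseudoobscura* lay mostly further along. Peak 30 (chr2L:2487157-2487578) was the lowest of the locus there, with 6.48 RPKM in *D. pseudoobscura* (35 reads) and 42.3 RPKM in *D. virilis* (199 reads), against 26.5 RPKM in FRT82 (59 reads) and 28.0 RPKM in Canton-S (161 reads). The strains were alike at this peak, and the log2 fold change of *D. pseudoobscura* over them was -2.51 ± 0.49 (edgeR adjusted p = 1.37e-05). Peak 17 (chr2L:2467173-2467474) had 9.16 RPKM in *D. pseudoobscura* (41 reads) and 12.6 RPKM in *D. virilis* (47 reads), against 25.7 RPKM in FRT82 (41 reads) and 23.9 RPKM in Canton-S (103 reads). The log2 fold change was -1.69 ± 0.51 in *D. pseudoobscura* (edgeR adjusted p = 0.00624) and -0.93 ± 0.49 in *D. virilis* (edgeR adjusted p = 0.154). Peak 17 is 193 bp from peak 16, where *D. pseudoobscura* was higher. Peaks 17 and 30 were the only ones 2-fold or more below each strain in RPKM, against 9.73% of all peaks.

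Peak 18 (chr2L:2467968-2468272) had 8.56 RPKM in *D. pseudoobscura* (38 reads) and 38.8 RPKM in *D. virilis* (133 reads), against 20.4 RPKM in FRT82 (34 reads) and 16.8 RPKM in Canton-S (81 reads). The strains lay between the other species, and the log2 fold change of *D. pseudoobscura* over them was -1.49 ± 0.50 (edgeR adjusted p = 0.0173). Peak 20 (chr2L:2470219-2471234), the longest of the locus, had 19.7 RPKM in *D. pseudoobscura* (352 reads) and 35.4 RPKM in *D. virilis* (411 reads), against 40.3 RPKM in FRT82 (220 reads) and 30.1 RPKM in Canton-S (411 reads). Its log2 fold change in *D. pseudoobscura* was -0.81 ± 0.32 (edgeR adjusted p = 0.0463).

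Peak 2 passed the test in both species, but its fold changes were smaller without FRT82. It had 16.1 RPKM in *D. pseudoobscura* (194 reads) and 10.2 RPKM in *D. virilis* (86 reads), against 45.9 RPKM in FRT82 (178 reads) and 16.4 RPKM in Canton-S (188 reads). The log2 fold change was -1.05 ± 0.38 in *D. pseudoobscura* (edgeR adjusted p = 0.0287) and -1.65 ± 0.41 in *D. virilis* (edgeR adjusted p = 8.36e-04). Without FRT82 the values were -0.30 and -0.88, and without Canton-S they were -1.62 and -2.19, in the same order. *D. pseudoobscura* and Canton-S therefore had nearly the same height, whereas *D. virilis* was below Canton-S as well. Neither species passed at this peak with DESeq2 (adjusted p = 0.582 in *D. pseudoobscura* and 0.377 in *D. virilis*) or with limma on log2 RPKM (0.437 and 0.0897). With the total count as scaling or a minimum of 10 reads the adjusted p was 0.0217 and 0.0341 in *D. pseudoobscura* and 0.00124 and 0.00132 in *D. virilis*.

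In *D. virilis* the higher peaks were peak 14 and peak 29. Peak 14 (chr2L:2462337-2462602) had 18.7 RPKM in *D. pseudoobscura* (86 reads) and 46.4 RPKM in *D. virilis* (139 reads), against 19.2 RPKM in FRT82 (28 reads) and 10.9 RPKM in Canton-S (51 reads). The log2 fold change of *D. virilis* over *D. melanogaster* was 1.43 ± 0.45 (edgeR adjusted p = 0.00969). Peak 29 (chr2L:2486457-2486899), the tallest peak of the locus in *D. virilis*, had 21.1 RPKM in *D. pseudoobscura* (166 reads) and 73.1 RPKM in *D. virilis* (354 reads), against 33.1 RPKM in FRT82 (77 reads) and 32.2 RPKM in Canton-S (189 reads). *D. virilis* stood above every other library there, by 1.09 ± 0.36 on the log2 scale over *D. melanogaster* (edgeR adjusted p = 0.0139). Both were 2-fold or more above each strain in RPKM, against 12.4% of all peaks.

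The lower peaks in *D. virilis* were peak 2, above, and peaks 6 and 32. Peak 6 (chr2L:2446944-2447372) had 23.9 RPKM in *D. pseudoobscura* (186 reads) and 9.75 RPKM in *D. virilis* (49 reads), against 40.4 RPKM in FRT82 (93 reads) and 27.1 RPKM in Canton-S (160 reads). Its log2 fold change in *D. virilis* was -1.78 ± 0.46 (edgeR adjusted p = 0.00148). Peak 32 (chr2L:2488585-2488949) had 47.9 RPKM in *D. pseudoobscura* (315 reads) and 18.5 RPKM in *D. virilis* (91 reads), against 68.1 RPKM in FRT82 (131 reads) and 51.2 RPKM in Canton-S (240 reads). Its log2 fold change in *D. virilis* was -1.43 ± 0.40 (edgeR adjusted p = 0.00365). Peaks 6 and 32 were 2-fold or more below each strain in RPKM, against 12.6% of all peaks.

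Between the other species, 8 of the 32 peaks were higher in *D. pseudoobscura* than in *D. virilis* (16.7% of all peaks) and 5 were lower (16.0% of all peaks), in the same edgeR fit. The higher ones were peaks 3, 4, 6, 8, 11, 13, 16 and 32, with log2 fold changes from 1.22 to 2.27, and the lower ones were peaks 14, 18, 28, 29 and 30, from -1.26 to -3.07. Peak 3 (chr2L:2428628-2428802) had 30.0 RPKM in *D. pseudoobscura* (96 reads) and 8.53 RPKM in *D. virilis* (17 reads), with 11.9 RPKM in FRT82 (12 reads) and 14.7 RPKM in Canton-S (42 reads), and a log2 fold change of *D. pseudoobscura* over *D. virilis* of 1.92 ± 0.61 (edgeR adjusted p = 0.00858). Peak 28 (chr2L:2482080-2482483) had 12.1 RPKM in *D. pseudoobscura* (77 reads) and 29.0 RPKM in *D. virilis* (143 reads), with 17.4 RPKM in FRT82 (39 reads) and 10.3 RPKM in Canton-S (74 reads), and a log2 fold change of -1.46 ± 0.51 (edgeR adjusted p = 0.0179). Neither peak passed the test against *D. melanogaster*.

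The direction of this difference varied with the position of the peaks. Peak 1, which stood alone, was lower in *D. pseudoobscura* than in *D. virilis* (log2 ratio of RPKM -0.25). At peaks 2 to 12, *D. pseudoobscura* was above *D. virilis* in RPKM at 11 of 11 peaks, with a median log2 ratio of 0.71. At peaks 13 to 32 it was above *D. virilis* at 6 of 20 peaks, with a median log2 ratio of -0.39, and over the whole table at 51.2% of peaks. With the edgeR fold change the counts were 10 of 11 and 5 of 20. The second part was not uniform. In RPKM, *D. pseudoobscura* was above *D. virilis* at 3 and below it at 8 of peaks 13 to 23. The same counts were 1 and 4 at peaks 24 to 28, and 2 and 2 at peaks 29 to 32. Peaks 13, 16 and 32 of this part passed the test as higher in *D. pseudoobscura*. *D. virilis* was above the mean of the strains at 3 of the 11 peaks and at 15 of the 20. For *D. pseudoobscura* these counts were 7 and 6. The division between peaks 12 and 13 is a gap of 4540 bp, and it and the separate place of peak 1 were chosen after the values were seen, so no test was given.

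The spread between the strains limited what could be seen in each species. *D. pseudoobscura* was above both strains at 9 peaks (39.4% of all peaks), below both at 11 (40.3% of all peaks) and between them at 12. *D. virilis* was above both strains at 12 peaks (40.3% of all peaks), below both at 10 (41.6% of all peaks) and between them at 10. The shares above and below at *dpp* were smaller than over all peaks. They were 28.1% and 34.4% in *D. pseudoobscura*, and 37.5% and 31.2% in *D. virilis*. In both species a larger share of the *dpp* peaks than of all peaks therefore lay between the strains. The 16 peaks that passed the test in none of the 3 comparisons between species had 15.0 to 71.7 RPKM in *D. pseudoobscura*, 17.0 to 68.8 RPKM in *D. virilis*, 21.6 to 73.6 RPKM in FRT82 and 9.65 to 61.6 RPKM in Canton-S. Relative to *D. melanogaster* the log2 fold changes of these peaks lay between -0.68 and 0.57 (*D. pseudoobscura*) and between -0.66 and 0.78 (*D. virilis*). The share of all peaks that passed in none of the 3 comparisons was not counted. Peak 7 (chr2L:2448389-2448934), named after its values were seen, was among the most even, with 48.9 RPKM in *D. pseudoobscura*, 43.8 RPKM in *D. virilis*, 49.4 RPKM in FRT82 and 38.7 RPKM in Canton-S.

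When the other species were pooled against the strains, edgeR's quasi-likelihood test called 0 of the 32 peaks (0.0% of all peaks in either direction). The smallest adjusted p among them was 0.374, and 3 had an unadjusted p under 0.05. DESeq2 and limma also called 0 of the 32 peaks in this grouping. Any divergence of the pooled species from each other counts as error here, and the biological coefficient of variation was 42.9%, against 20.1% with 3 groups.

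The study fitted Ornstein-Uhlenbeck models, in which a trait is drawn towards an optimum, and asked whether 1 species has an optimum of its own. A likelihood ratio written after that description placed 7 of the 32 peaks in a class at an adjusted p under 0.05. Peaks 8, 11 and 16 were *D. pseudoobscura* gains (6.2% of all peaks) and peak 30 was a *D. pseudoobscura* loss (4.68% of all peaks). Peaks 31 and 32 were *D. virilis* losses (5.79% of all peaks) and none was a *D. virilis* gain (7.0% of all peaks). Peak 5 was a *D. melanogaster* gain (5.18% of all peaks) and none was a *D. melanogaster* loss (3.35% of all peaks). These classes differed from the edgeR calls. Peaks 4 and 13, which edgeR called higher in *D. pseudoobscura*, were in no class (likelihood ratio, adjusted p = 0.0947 and 0.139). Peaks 5 and 31 were in a class but passed in no edgeR comparison between species. With 4 tips the threshold is not exact, and at an adjusted p under 0.01 no *dpp* peak was placed in a class.

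The calls between species depended on the tool. Against *D. melanogaster*, DESeq2 called 3 peaks in *D. pseudoobscura* and 1 in *D. virilis*, and limma on log2 RPKM called 4 in each. Over all 19424 peaks, DESeq2 called 1205 and 1104 and limma called 2864 and 3840, in the same order of species. Peaks 4, 13 and 30 in *D. pseudoobscura* and peak 6 in *D. virilis* passed in edgeR and in all 4 alternative tests (total count as scaling, DESeq2, a minimum of 10 reads and limma). The other calls against *D. melanogaster* were lost in at least 1 of them, with a highest adjusted p between 0.0625 and 0.582. The share of all peaks that passed in every test was not counted. Reads that could not be moved between genomes can lower the value of *D. pseudoobscura* and *D. virilis* and not that of *D. melanogaster*. The part of moving reads between genomes in the lower or the higher peaks was not tested.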

How the data were processed

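FAIRE-Seq reads of 4 libraries were grouped by species from their titles. The authors mapped reads with Bowtie2 to the genome of each species, moved alignments to *D. melanogaster* release 5 positions with liftOver, called peaks per library with F-Seq, left out regions with 0 reads in a species and counted reads per peak with HTSeq. The paper also describes the peaks as filtered by a minimum RPKM across the species and by a minimum length. The deposited counts are whole reads without normalization. The authors further normalized the deposited RPKM between libraries, with a tool not given in the sources used here.

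Counts were tested with edgeR 4.0.16 (glmQLFit, TMM, no filter on low counts, Benjamini-Hochberg over all 19424 peaks) in R 4.3.3, with 3 species groups (1 residual degree of freedom) or 2 groups. The approximate SE is the log2 fold change over the square root of F. Alternatives were the total count as scaling, DESeq2 1.42.0, limma 3.58.1 on log2 RPKM without a pseudocount, at least 10 reads in every library, stricter thresholds and leaving out a strain. Ornstein-Uhlenbeck ratios used a tree with its root at 42 My, the *D. melanogaster* and *D. pseudoobscura* split at 38 My and the strains at 1 My. Scripts were tested on simulated data. Strain ratios have Clopper-Pearson intervals.

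All 32 peaks were accounted for, in full where a comparison passed the test and for the 3 highest and the lowest by the mean of the *D. melanogaster* strains. The window and tests were chosen with earlier results of these data known. The table names no genes, so other genes of the pathway were not analysed here.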

Additional observations from a re-analysis of the deposited data

Results flagged for a closer look

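At 13 *dpp* peaks the change relative to *D. melanogaster* differed between *D. pseudoobscura* and *D. virilis*, by edgeR's quasi-likelihood test of the difference itself at an adjusted p under 0.05. The same test called 6349 of all 19424 peaks. These 13 are the calls between *D. pseudoobscura* and *D. virilis* already given above. The log2 fold change of *D. pseudoobscura* over *D. virilis* was 1.92 at peak 3, 1.5 at peak 4, 1.36 at peak 6, 2.27 at peak 8, 1.63 at peak 11, 1.37 at peak 13, 1.31 at peak 16 and 1.22 at peak 32. It was -1.26 at peak 14, -2.37 at peak 18, -1.46 at peak 28, -1.66 at peak 29 and -3.07 at peak 30. Each value compares 1 library with 1 library. Peaks 18, 29 and 30 also passed in all 4 alternative tests, and the share of all peaks that did so was not counted.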

How the results depend on the processing

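No direction of a called peak reversed under any alternative. For *D. pseudoobscura* over *D. melanogaster*, 10 *dpp* peaks and 5349 of all peaks were called, against 3 and 1205 with DESeq2, 4 and 2864 with limma on log2 RPKM, and 5 and 3068 at an adjusted p under 0.01. For *D. virilis* over *D. melanogaster*, 5 and 4799 were called, against 1 and 1104 with DESeq2, and 2708 of all peaks at an adjusted p under 0.01. For *D. pseudoobscura* over *D. virilis*, 13 and 6349 were called, against 3 and 1707 with DESeq2, 5 and 3413 with limma, and 5 and 3951 at an adjusted p under 0.01. With both other species as 1 group, edgeR called 0 of all peaks, with 1961 at an unadjusted p under 0.05, against 158 with DESeq2, 273 with limma and 6 to 8 when a strain was left out. The Ornstein-Uhlenbeck ratio placed 7 *dpp* peaks and 6254 of all peaks in a class, against 0 and 1152 at an adjusted p under 0.01. The cause of these differences was not tested. Leaving out a strain moved the median log2 ratio over the *dpp* peaks between -0.52 and 0.22 for *D. pseudoobscura* and between -0.26 and 0.40 for *D. virilis*. A requirement of 2-fold from each strain, the neighbouring windows and the depth limit of 20 reads were added after the data were seen. The 3-group test could not be run without a strain, since no residual degree of freedom is left. No paired analysis was possible because the labels give no replicate numbers that the species share. FRT82, with 11 reads at its shallowest *dpp* peak, limits the precision of every comparison with *D. melanogaster*.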
